A study of Mus musculus with 6 samples.

Results

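The genes described here encode 9 proteins that turn arachidonic acid into leukotrienes, prostaglandins and thromboxane: Alox5, Alox5ap, Ltc4s, Lta4h, Alox15, Ptgs1, Ptgs2, Tbxas1 and Hpgds. They were chosen by symbol from the deposited table of 57180 genes, and all 9 had enough counts to be among the 14761 genes tested. Bulk RNA-seq compared CD36+ NK with CD36- NK cells, 3 libraries in each group, to ask how CD36, a scavenger receptor that takes up fatty acids, bears on natural killer (NK) cells in fibrosis. Both groups came from wild-type male C57BL/6J mice aged 6 to 8 weeks that had been injected with 2.5 ml/kg of 20% CCl4 in olive oil, a liver toxin, for 4 weeks and were killed 48 h after the last injection. The cells were sorted from fibrotic liver as CD3- NK1.1+ cells and then by CD36. There was no library from mice without CCl4, and whether livers were pooled or whether same-numbered libraries shared a mouse is not stated in the sources used here. The design text calls the replicates biological, and the p-values measure the spread between these libraries.

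Eicosanoids are short-lived signalling lipids made from arachidonic acid that phospholipases free from membranes. The 5-lipoxygenase branch, with its helper protein FLAP, makes leukotriene A4, which Lta4h and Ltc4s convert to leukotriene B4 and the cysteinyl leukotrienes. The cyclooxygenase branch makes prostaglandin H2, from which terminal synthases such as Tbxas1 and Hpgds make thromboxane and prostaglandin D2. These lipids are best known as products of macrophages, neutrophils, mast cells, eosinophils and platelets, and they attract leukocytes and set vascular tone in inflamed liver.

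The make-up of the libraries stands beside every result. The total counts ran from 10292480 to 13787189 per library, and Cd36 was higher in CD36+ NK by 3.27 on the log2 scale (SE 0.43, adjusted p = 0.00615). All 10 NK genes measured were lower in CD36+ NK, with a summed level of 917 to 1101 counts per 1000000 (CPM) against 4902 to 6210 in CD36- NK, and the most counted were the cytotoxic genes Gzma, Nkg7 and Prf1. The summed level of 14 macrophage genes was 6849 to 9715 CPM across CD36+ NK libraries and 2485 to 5884 across CD36- NK libraries, and 5 of the 12 tested were called higher in edgeR's quasi-likelihood test, against 9 by DESeq2 and 10 by the exact test. The most counted were Lyz2, Csf1r and C1qb. Fewer cells of a type and less RNA per cell cannot be told apart in such bulk samples.

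Of the 9 synthesis genes, 3 were called higher in CD36+ NK: Alox5, Ltc4s and Ptgs1. A gene was called at a Benjamini-Hochberg adjusted p below 0.05 over all tested genes in edgeR's quasi-likelihood test, with a fold change above 2. Of all tested genes, 2.98% were called higher and 2.98% lower, and none of the 9 was called lower by this test, by DESeq2 or by edgeR's exact test. At an unadjusted p below 0.05, 5 were higher and 1, Lta4h, was lower, against 14.2% and 12.1% of all tested genes. DESeq2 and the exact test called 5 higher, adding Hpgds and Tbxas1. They called 652 and 723 of the 14761 tested genes higher, against 440 by the quasi-likelihood test. The quasi-likelihood test called 0 of the 9 when either CD36+ NK replicate 2 or, in turn, CD36- NK replicate 3 was left out. In those fits the same 6 genes were at an unadjusted p below 0.05, and 120 and 143 of all tested genes were called higher. Ltc4s passed the filter on low counts only through its CD36+ NK libraries. With at least 10 counts required in every library it was not tested. In that fit 2 of 8 synthesis genes, Alox5 and Ptgs1, were called higher, beside 357 of 13244 tested genes. In the main fit the log2 fold change was above 0 for 8 of the 9, and their median was 1.06, against 0.01 for all tested genes. For 6 of the 9 every CD36+ NK library was above every CD36- NK library, as for 17.0% of all tested genes, and for 1, Lta4h, every CD36+ NK library was below, as for 15.7% of all.

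**Figure D1:**
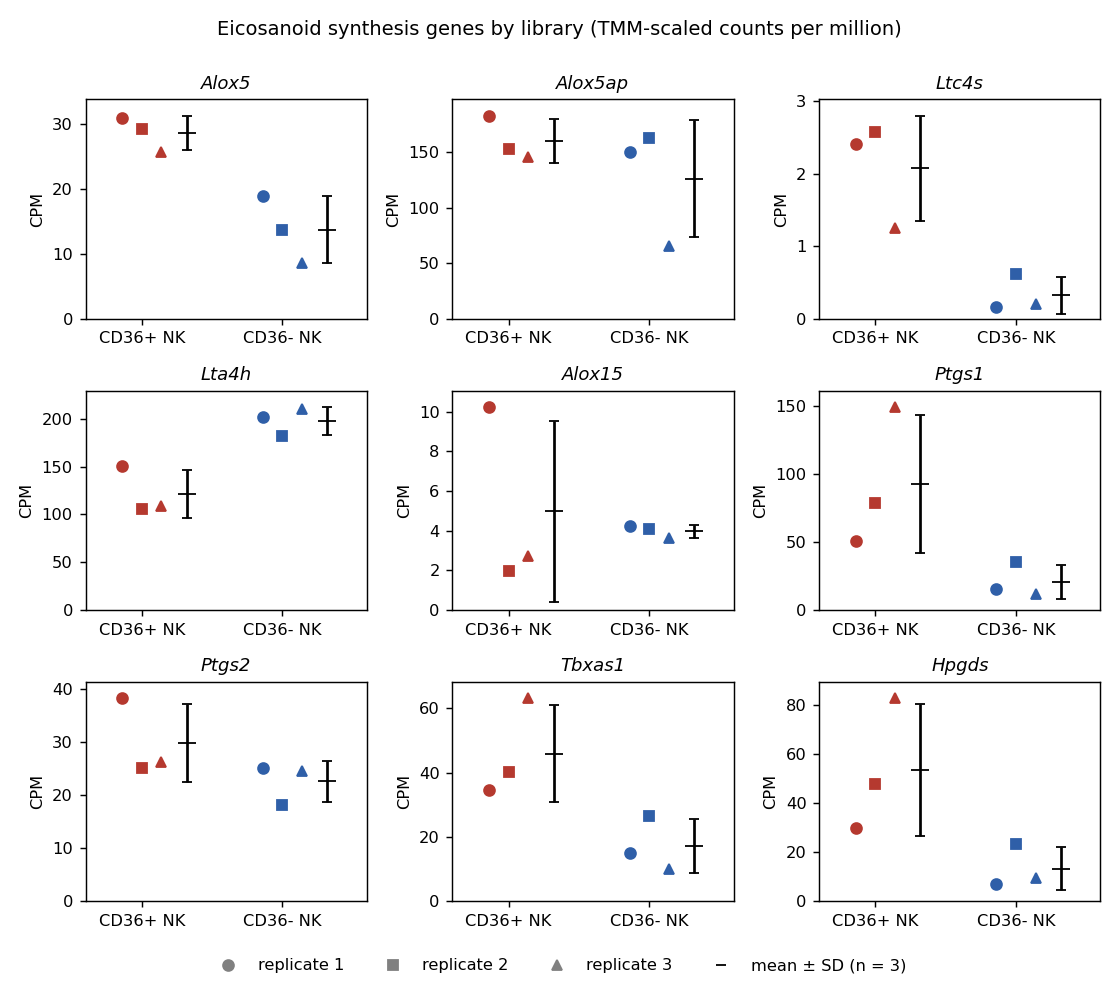
Levels of the 9 synthesis genes in TMM-scaled CPM, 1 panel a gene, with each library as a point (shape marks the replicate) and the mean ± SD of 3 libraries beside each group. For Alox5, Ltc4s, Ptgs1, Ptgs2, Tbxas1 and Hpgds the 3 CD36+ NK libraries lie above the 3 CD36- NK libraries, for Lta4h below them, and for Alox5ap and Alox15 the groups overlap.

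The levels of the 9 genes were compared with each other per kilobase of exon, since longer genes collect more counts. On that scale Alox5ap was the most abundant of the 9 in both groups, at 113 ± 13.97 CPM per kb in CD36+ NK and 89.0 ± 37.3 in CD36- NK (SD, n = 3). Ptgs1 stood next in CD36+ NK at 23.9 ± 13.1 and did not differ beyond its spread from Lta4h at 19.9 ± 4.08 CPM per kb. In CD36- NK the order of these was turned, with Lta4h at 32.4 ± 2.36 and Ptgs1 at 5.29 ± 3.27 CPM per kb. Hpgds, Alox5, Ptgs2 and Tbxas1 lay from 8.32 down to 5.05 CPM per kb in CD36+ NK, with spreads that overlapped. In CD36- NK Ptgs2 and Alox5, at 4.93 and 3.32, had higher means than Hpgds and Tbxas1, at 2.06 and 1.89 CPM per kb, but the spreads of Alox5 and Hpgds overlapped. Ltc4s and Alox15 had the lowest means in both groups, at 2.05 and 2.03 CPM per kb in CD36+ NK and at 0.318 and 1.62 in CD36- NK. Alox15 did not differ beyond the spread from Hpgds and Tbxas1 in CD36- NK, and in CD36+ NK replicate 1 it was above Tbxas1.

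Alox5, on chromosome 6 from 116387038 to 116438139 in the deposited table, which names no build, encodes 5-lipoxygenase, the enzyme that starts leukotriene synthesis. Its level was 30.8, 29.2 and 25.6 CPM in CD36+ NK replicates 1 to 3 and 18.8, 13.6 and 8.50 CPM in CD36- NK replicates 1 to 3. The groups did not overlap, and the CD36+ NK libraries were closer together than the CD36- NK libraries. The log2 fold change was 1.06 (SE 0.27), a fold of 2.08, with an adjusted p of 0.04999 (edgeR, n = 3 per group), so both the p and the fold lay just inside the thresholds. The call was made in 7 of 16 alternative fits. It was lost without CD36+ NK replicate 1, 2 or 3 (adjusted p = 0.0927, 0.133 and 0.112) and without CD36- NK replicate 2 or 3 (0.0971 and 0.0708, edgeR), while the direction was the same in all of them.

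Alox5ap encodes FLAP, the membrane protein that hands arachidonic acid to 5-lipoxygenase, and it lies on chromosome 5 from 149201577 to 149224963. It was measured at 183, 153 and 146 CPM in CD36+ NK and at 151, 163 and 65.7 CPM in CD36- NK. The groups overlapped, since only CD36- NK replicate 3 was below the CD36+ NK libraries. FLAP's log2 fold change was 0.35 (SE 0.31, adjusted p = 0.552, edgeR, n = 3 per group). Per kilobase there were 15.2 to 17.2 times as many Alox5ap as Alox5 counts in CD36+ NK and 22.4 to 34.6 times for CD36- NK. These ratios did not overlap, and their log2 difference of -0.69 had an exact two-sided permutation p of 0.1, the smallest that 3 against 3 libraries can give.

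Of the genes that act on leukotriene A4, Ltc4s was called higher, and Lta4h had lower levels but was not called. Ltc4s, on chromosome 11 from 50127288 to 50129443, encodes leukotriene C4 synthase. It had 27, 35 and 15 counts in CD36+ NK (2.40, 2.58 and 1.25 CPM) and 2, 7 and 2 counts in CD36- NK (0.154, 0.619 and 0.195 CPM). Every CD36+ NK library was above every CD36- NK library, but 2 of the CD36- NK libraries held fewer than 3 counts, so the size of the fold is poorly set. Ltc4s passed the filter on low counts only through the CD36+ NK libraries, where it was high. It was not tested when at least 10 counts were required in every library. Over the summed counts, 77 against 11, the ratio was 6.56 with an exact 95% interval of 3.47 to 13.7 that covers counting error only. The fitted log2 fold change was 2.66 (SE 0.56, adjusted p = 0.0296, edgeR, n = 3 per group), and the call was made in 10 of 15 alternative fits. It was lost without CD36+ NK replicate 1 or 2 (adjusted p = 0.0534 and 0.101) and without CD36- NK replicate 1 or 3 (0.105 and 0.109, edgeR). An antisense gene, Gm26542, overlaps Ltc4s and had 21 counts over the 6 libraries, and whether strand was used in counting is not stated in the sources used here.

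Lta4h, on chromosome 10 from 93289273 to 93320737, encodes leukotriene A4 hydrolase, which makes leukotriene B4 and also trims peptides. Its level was 150, 106 and 108 CPM in CD36+ NK and 201, 182 and 210 CPM in CD36- NK. It was the only 1 of the 9 genes with a log2 fold change below 0 in the main fit, and its groups did not overlap. Its log2 fold change was -0.70 (SE 0.15, adjusted p = 0.0318, edgeR, n = 3 per group), a fold of 1.63, which passed the p but not the fold threshold. The adjusted p was above 0.05 without CD36+ NK replicate 2 or 3 (0.108 and 0.115) and without CD36- NK replicate 1 or 3 (0.104 and 0.109, edgeR). Per kilobase, Lta4h exceeded Ltc4s 6.83 to 14.4 times in CD36+ NK and 48.8 to 218 times for CD36- NK. The ratios did not overlap (exact two-sided permutation p = 0.1, the smallest possible), with the counting limit on Ltc4s given above.

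Alox15, on chromosome 11 from 70234978 to 70242857, encodes a lipoxygenase that oxidises arachidonic acid within membranes and is known from eosinophils and some macrophages. It was measured at 10.2, 1.99 and 2.74 CPM in CD36+ NK and at 4.23, 4.07 and 3.61 CPM in CD36- NK. CD36+ NK replicate 1 was above the other 5 libraries, while CD36+ NK replicates 2 and 3 were below all CD36- NK libraries. The log2 fold change was 0.32 (SE 0.59, adjusted p = 0.792, edgeR, n = 3 per group), and it was -0.76 (adjusted p = 0.137) without CD36+ NK replicate 1. With a block for the form of the library name, which sets replicate 1 of both groups apart, it was 0.02 (adjusted p = 0.983, edgeR). Within CD36- NK, replicate 1 was the highest for Alox15 and for Prg2. CD36+ NK replicate 1 stood apart in eosinophil granule genes, which were chosen after their values were seen. The peroxidase gene Epx was at 3.74 CPM there and at most at 0.0977 CPM in the other libraries, and Ear6 was at 3.29 CPM there and at 0 counts in the others, where the floor is 3 counts per library. Ear1 was at 4.09 CPM there and at most at 0.665 CPM elsewhere, and Prg2 was at 19.4 CPM against 2.80 to 6.30 CPM. The part of such RNA in the Alox15 level was not tested. The summed level of all 7 eosinophil genes was 131 to 242 CPM across CD36+ NK and 26.6 to 64.5 CPM across CD36- NK. Ccr3 was most of that sum in each CD36+ NK library, and Il5ra was the most counted of the list in CD36- NK replicates 1 and 3. CD36+ NK replicate 1 did not stand out in these: it was the lowest of its group for Ccr3, at 74.9 against 106 and 217 CPM, and for the sum of the 7 genes, at 131 against 135 and 242 CPM, and its Il5ra, at 21.4 CPM, lay between the other two, at 26.0 and 20.3 CPM. Of the 4 tested, none was called by edgeR's quasi-likelihood test, with 2 higher at an unadjusted p below 0.05 and Ccr3 called higher by DESeq2 and the exact test.

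**Figure D2:**
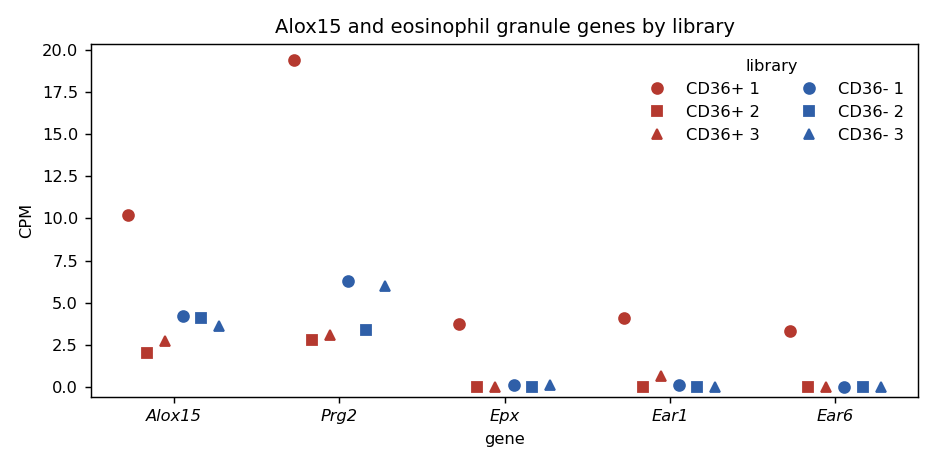
Levels of Alox15 and 4 eosinophil granule genes in CPM for each of the 6 libraries (colour marks the group, shape the replicate). CD36+ NK replicate 1, at 10.2 CPM for Alox15 and 19.4 CPM for Prg2, is the highest library for all 5 genes, and Ear6 was at 0 counts in the other 5 libraries.

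After Ltc4s, Ptgs1 had the highest log2 fold change of the 9 genes. It lies on chromosome 2 from 36120438 to 36142284 and encodes cyclooxygenase-1, the constitutive enzyme that makes prostaglandin H2. Its level was 50.6, 79.0 and 149 CPM in CD36+ NK and 15.1, 35.0 and 11.4 CPM in CD36- NK. The groups did not overlap, but the gap between them, from 35.0 to 50.6 CPM, was smaller than the span within either group. Ptgs1 had a log2 fold change of 2.18 (SE 0.52), a fold of 4.52, with an adjusted p of 0.0426 (edgeR, n = 3 per group), and the call was made in 9 of 16 alternative fits. It was lost without CD36+ NK replicate 2 or 3 (adjusted p = 0.0984 and 0.120) and without CD36- NK replicate 1 or 3 (0.138 and 0.132, edgeR).

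Ptgs2, on chromosome 1 from 149975782 to 149983978, encodes cyclooxygenase-2, the form induced in inflammation. It was measured at 38.2, 25.1 and 26.2 CPM in CD36+ NK and at 25.06, 18.1 and 24.6 CPM in CD36- NK. The lowest CD36+ NK library was barely above the highest CD36- NK library, and the log2 fold change was 0.40 (SE 0.21, adjusted p = 0.283, edgeR, n = 3 per group). Per kilobase, Ptgs1 was 1.56, 3.71 and 6.72 times as abundant as Ptgs2 in CD36+ NK and 0.713, 2.28 and 0.547 times in CD36- NK. The ratios overlapped, because CD36- NK replicate 2 was above CD36+ NK replicate 1 (log2 difference 1.82, exact two-sided permutation p = 0.2).

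The terminal synthases Tbxas1 and Hpgds had levels that did not overlap between the groups, but neither was called by edgeR's quasi-likelihood test, while DESeq2 and edgeR's exact test called both. Tbxas1, on chromosome 6 from 38852338 to 39061519, encodes thromboxane A synthase, an enzyme best known from platelets and macrophages. Its level was 34.4, 40.2 and 63.0 CPM in CD36+ NK and 14.9, 26.5 and 10.1 CPM in CD36- NK. Tbxas1 had a log2 fold change of 1.42 (SE 0.38, adjusted p = 0.0570, edgeR, n = 3 per group), and the gene was called in 3 of 16 alternative fits, among them DESeq2 (adjusted p = 0.00140) and the exact test (0.00410). Leaving out CD36- NK replicate 2, the highest of its group, brought the call (adjusted p = 0.0168, edgeR). The start of Tbxas1 overlaps Hipk2 on the other strand, with 1759 Hipk2 counts over the 6 libraries.

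Hpgds, on chromosome 6 from 65094277 to 65121892, encodes the hematopoietic prostaglandin D synthase of mast cells, macrophages and some lymphocytes. It was measured at 30.0, 47.7 and 82.6 CPM in CD36+ NK and at 6.92, 23.3 and 9.57 CPM in CD36- NK. Again CD36+ NK replicate 3 was the highest library and CD36- NK replicate 2 the highest of its group. Hpgds had a log2 fold change of 2.01 (SE 0.53, adjusted p = 0.0548, edgeR, n = 3 per group), a fold of 4.04, and the gene was called in 5 of 16 alternative fits, among them DESeq2 (adjusted p = 0.000305) and the exact test (0.00254). The call was made without CD36+ NK replicate 1 (adjusted p = 0.0371) or without CD36- NK replicate 2 (0.0172, edgeR). Mast cell and basophil genes, by contrast, summed to between 64.2 and 130 CPM in CD36+ NK libraries and to between 149 and 192 CPM in the others, and 2 of the 9 tested, Kit and Cd200r3, were called lower by edgeR's quasi-likelihood test. DESeq2 and the exact test each called 5 lower, and 6 were lower at an unadjusted p below 0.05.

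**Figure D3:**
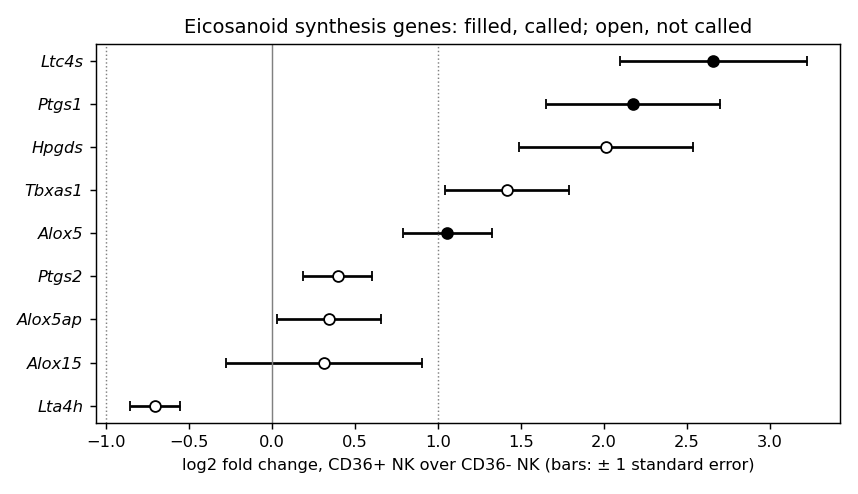
Log2 fold change of CD36+ NK over CD36- NK for the 9 synthesis genes, with bars of 1 standard error from edgeR (3 libraries per group), filled points for called genes and dotted lines at a fold of 2. Ltc4s, at 2.66, has the highest value and Lta4h, at -0.70, is the only 1 below 0, and the open points of Hpgds (2.01) and Tbxas1 (1.42) lie beyond the fold of 2 but missed the p threshold.

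Ptgs1, Hpgds and Tbxas1 ordered the 6 libraries alike. Ptgs1 and Tbxas1 had the same order, with CD36+ NK replicate 3 highest, then 2 and 1, then CD36- NK replicates 2, 1 and 3, and Hpgds differed only in that CD36- NK replicate 3 was above replicate 1. The order of Ptgs1 was shared by 515 other tested genes (3.49%), among them 5 of the 12 tested macrophage genes (Adgre1, Cd5l, Cd68, Csf1r and Timd4). The order of Hpgds was shared by 222 (1.50%), among them 6 of the 12 (C1qa, C1qb, C1qc, Cd163, Marco and Mertk). Csf1r, the receptor that macrophages need for survival, was at 1138, 1726 and 2342 CPM in CD36+ NK and at 411, 748 and 242 CPM in CD36- NK. C1qb, a complement gene of tissue macrophages, was at 252, 380 and 708 CPM and at 25.0, 132 and 26.1 CPM. Lyz2, the lysozyme gene of monocytes, neutrophils and macrophages, did not follow this order, with levels of 3486 to 4305 CPM across CD36+ NK and 2052 to 4747 CPM across CD36- NK. Clec4f, a defining gene of Kupffer cells, was at 45.9 CPM in CD36+ NK replicate 2, at 1.51 CPM in replicate 1 and at 0 counts in the other 4 libraries, so the 3 genes did not follow it.

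**Figure D4:**
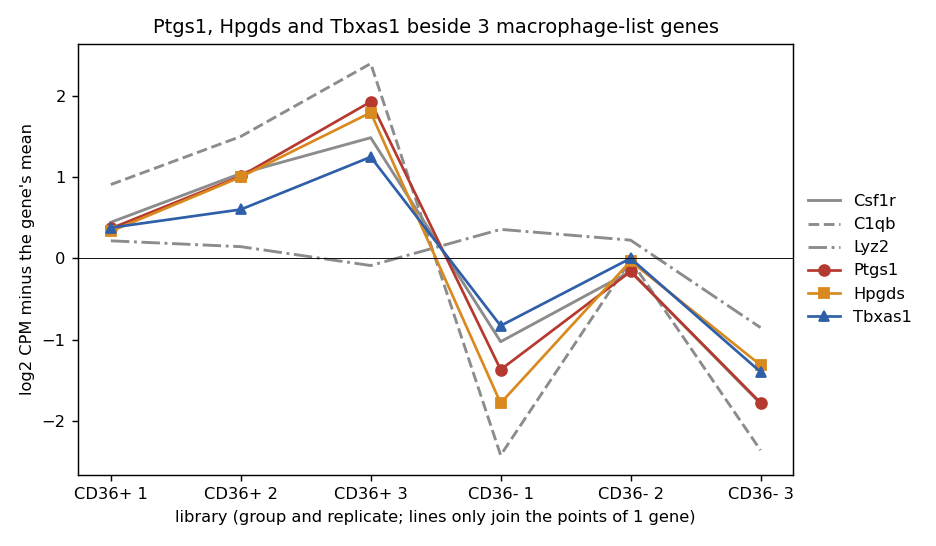
Log2 CPM minus each gene's own mean over the 6 libraries for Ptgs1, Hpgds and Tbxas1 (coloured, with markers) and for 3 macrophage-list genes (grey). The coloured lines run with Csf1r and C1qb, highest in CD36+ NK replicate 3 and, within CD36- NK, highest in replicate 2, whereas Lyz2 does not.

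The likeness of 2 genes was measured as the root mean square difference of their centred log2 CPM over the 6 libraries, which share their depth and group labels. Among the 9 genes Ptgs1 and Hpgds were the closest pair (0.261), followed by Alox5 and Alox5ap (0.398) and by Ptgs1 and Tbxas1 (0.426). Of 10009 genes with a mean of at least 10 CPM, the closest to Ptgs1 were Cfp (0.0824), the properdin gene of the complement system, Sdc3 (0.108) and Gtf2ird1 (0.112). Closest to Alox5 were Tlr2 (0.102), a receptor for bacterial lipoproteins, Fam20c (0.138) and Ifitm2 (0.161). The nearest genes to Ltc4s were farther away, with Apol7c at 0.406, Clec9a, a marker of cross-presenting dendritic cells, at 0.439 and Eno3 at 0.502. The mean of Ltc4s, 1.20 CPM, was itself below 10 CPM, so its distances also hold counting error. The log2 CPM used a prior count of 2, which damps differences at such low levels.

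Each level was also divided by the summed level of the macrophage genes, and the answer depended on Lyz2, which made up 35.9 to 62.9% of that sum across CD36+ NK and 73.6 to 88.1% across CD36- NK. Against the whole list, Ptgs1 was higher in CD36+ NK by 1.29 on the log2 scale, Hpgds by 1.17, Tbxas1 by 0.57 (exact two-sided permutation p = 0.1 for each, the smallest possible) and Alox5 by 0.21 (p = 0.5, exact). Without Lyz2 the differences were -0.18 for Ptgs1 (p = 0.3), -0.30 for Hpgds (p = 0.4), -0.91 for Tbxas1 (p = 0.1) and -1.26 for Alox5 (p = 0.2, all exact), so all 4 turned in direction. Per 1000 CPM of the list without Lyz2 there were 19.9, 20.2 and 23.9 CPM of Ptgs1 in CD36+ NK and 23.7, 22.5 and 26.4 CPM in CD36- NK, a span of 1.33 times over all 6 libraries. The same ratio spanned 2.05 times for Hpgds, 2.31 times for Tbxas1 and 7.17 times for Alox5. Ltc4s was higher by 1.98 with Lyz2 (p = 0.1, exact) and by 0.51 without it (p = 0.5, exact), and Lta4h was lower in both, at -1.64 and -3.11 (p = 0.1 for each, exact). For Alox5ap the values were -0.47 with Lyz2 (p = 0.2, exact) and -1.94 without it (p = 0.1, exact).

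The windows around the start sites of these genes were searched for short motifs, which were chosen after values of these data were seen. The RefSeq promoter table (GRCm38.p6) holds 7 of the 9 genes, from 250 bases before to 50 bases after the start, and Alox5ap and Alox15 are not among them. The letters gaggaa, the core of the site of the ETS factor PU.1, stood on either strand in all 7 windows and in 28.3% of all 32851 promoters in the table. The 7 genes include Lta4h, which had lower levels in CD36+ NK, and Ptgs2, which was not called. Whether the motif has a part in the levels was not tested. The longer gaggaagt, which contains it, stood in the windows of Ptgs1 and Hpgds and in 3.20% of all. Of the other motifs searched on both strands, the GC box gggcgg stood in Alox5 and Ptgs2 (35.7% of all promoters) and tataaa in Tbxas1 (13.6%), while tgactca (5.20%) and tgacgtca (1.79%) stood in none of the 7. A match is a description of letters and not a bound site. The stretches around the match are shown for Ptgs1, Hpgds and Tbxas1, whose libraries were ordered alike, and for Alox5, which was not, 5′ to 3′ on the strand with the match, which is in capitals.
Ptgs1, chr2:36230390-36230419, the gene's strand, 24 bases before the start: aaggctggagcaGAGGAAgttggcggtcag
Hpgds, chr6:65144762-65144791, the gene's strand, 49 bases before the start: ggcttttaggtgGAGGAAgtggcctctggc
Tbxas1, chr6:38918955-38918984, opposite strand, 19 bases before the start: tttctttataaaGAGGAAggaagcagaggg
Alox5, chr6:116461297-116461326, the gene's strand, 136 bases before the start: agagatggggcaGAGGAAcaagggcttcag
In Ptgs1 and Hpgds the capitals are followed by gt, which completes the longer match, and in the other 2 they are not. The stretches of Tbxas1 and Hpgds overlap an annotated exon of the gene.

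Around the 9 genes, 75 further genes of the pathway were listed by step, of which 52 were tested, 7 were called higher and 1 lower, with a median log2 fold change of 0.25. The share called over all tested genes was 2.98% in each direction, which also stands beside the counts of each step below. The calls lay at release of arachidonic acid, at inactivation and at the receptors. With 1 library left out, 2 pathway genes were called without CD36+ NK replicate 2 and 2 without CD36- NK replicate 1, 3 without CD36+ NK replicate 3, 4 without CD36- NK replicate 3, 11 without CD36+ NK replicate 1 and 12 without CD36- NK replicate 2. These pathway counts hold both directions. In the same order 120, 94, 132, 143, 568 and 708 of all tested genes were called higher, against 440 with all 6 libraries. For lower calls the numbers were 298, 323, 319, 288, 554 and 452, also against 440. Cysltr2 was called in all 6 of these fits.

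At the step that frees arachidonic acid, 4 of 15 tested genes were called higher and none lower by edgeR's quasi-likelihood test, DESeq2 or the exact test, and 1 was lower at an unadjusted p below 0.05. All 4 lost their call without CD36+ NK replicate 2 or 3 and without CD36- NK replicate 1. They also lost it with the replicate block, with no filter on low counts and with replicates 2 and 3 only. Without CD36- NK replicate 3 only Pla2g7 kept its call, and with a block for the form of the library name only Pla2g2d did. Pla2g4a also lost its call with scaling by library totals only. Pla2g4a, the cytosolic phospholipase A2 that supplies both branches, was at 18.0, 21.8 and 37.1 CPM in CD36+ NK and at 7.92, 12.4 and 4.49 CPM in CD36- NK. It was higher by 1.63 on the log2 scale (SE 0.40, adjusted p = 0.0471, edgeR), and the libraries had the order seen for Ptgs1. The secreted Pla2g2d was higher by 2.57 (adjusted p = 0.0396), the lysosomal Pla2g15 by 1.93 (0.0463) and Pla2g7, which degrades platelet-activating factor, by 1.53 (0.0387, edgeR). Plaat3, another phospholipase, lay between 34.3 and 40.2 CPM in CD36+ NK and between 57.0 and 66.9 CPM in CD36- NK, with a log2 fold change of -0.78 (adjusted p = 0.00736, edgeR) that missed the fold threshold. Anxa1, an inhibitor of phospholipase A2 activity and the most counted gene of this step, was at 244, 88.1 and 92.2 CPM in CD36+ NK and at 274, 220 and 178 CPM in CD36- NK (log2 fold change -0.66, adjusted p = 0.357, edgeR).

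No other lipoxygenase, peroxidase or prostanoid synthase was called by edgeR's quasi-likelihood test. At an unadjusted p below 0.05, 1 lipoxygenase was higher and 1 lower, 1 peroxidase was higher and 2 prostanoid synthases were higher. DESeq2 and the exact test called those 2 synthases, Prxl2b and Ptgis, and the exact test also called Alox8 lower. The other lipoxygenases were sparse, and none of the 3 tested, Aloxe3, Alox12 and Alox8, exceeded 5.15 CPM in any library. Among the 5 peroxidases and microsomal glutathione transferases, Gpx1, which reduces lipid hydroperoxides, lay between 592 and 684 CPM in CD36+ NK and between 215 and 397 CPM in CD36- NK. Its log2 fold change of 0.97 passed the p threshold (adjusted p = 0.0424, edgeR) and lay just short of the fold threshold. Gpx4, the peroxidase of membrane phospholipids, had a log2 fold change of -0.29 (adjusted p = 0.216), and Mgst1 of 0.49 (0.271, edgeR). Of 7 tested prostanoid synthases the most counted were Ptges3, a prostaglandin E synthase, at 0.01 (adjusted p = 0.983), Akr1b3 at 0.05 (0.828) and Prxl2b at 1.92 on the log2 scale (0.0595, edgeR). Prxl2b, a prostaglandin F synthase, was at 16.6, 21.4 and 45.1 CPM in CD36+ NK and at 6.07, 12.1 and 3.61 CPM in CD36- NK, again in the order of Ptgs1.

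Of 13 tested genes of inactivation and export, 2 were called higher. Hpgd, the dehydrogenase that inactivates prostaglandins, was at 114, 170 and 272 CPM in CD36+ NK and at 28.4, 67.4 and 16.0 CPM in CD36- NK, and its log2 fold change was 2.31 (SE 0.55, adjusted p = 0.0398, edgeR). Dpep2, a dipeptidase that converts leukotriene D4 to leukotriene E4, was at 20.8, 44.6 and 33.8 CPM in CD36+ NK and at 6.61, 9.46 and 4.39 CPM in CD36- NK (log2 fold change 2.27, adjusted p = 0.0111, edgeR). The Hpgd call was lost without CD36+ NK replicate 2 or 3 and without CD36- NK replicate 1 or 3. It was also lost with the replicate block, with no filter on low counts and with replicates 2 and 3 only. The Dpep2 call was lost only without CD36- NK replicate 1. With all 6 libraries, genes for both the synthesis and the removal of these lipids were thus among those called higher, within these limits. Ephx1, Cyp4f16 and Cyp4f18, the last of which hydroxylates leukotriene B4, passed the p but not the fold threshold, with log2 fold changes of 0.81, 0.78 and 0.87 (adjusted p = 0.00660, 0.0396 and 0.0164, edgeR).

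Among 9 tested receptors 1 was called in each direction, and neither binds a prostanoid. Cysltr2, a receptor for the cysteinyl leukotrienes that Ltc4s starts, was at 4.72, 5.44 and 5.90 CPM in CD36+ NK and at 17.4, 17.7 and 25.5 CPM in CD36- NK. It was lower by a log2 fold change of -1.91 (SE 0.20, adjusted p = 0.00315, edgeR), opposite in direction to Ltc4s. Fpr2, a receptor for formyl peptides, annexin A1 and lipoxin A4, was at 39.3, 45.6 and 41.4 CPM in CD36+ NK and at 20.8, 17.0 and 11.3 CPM in CD36- NK (log2 fold change 1.36, adjusted p = 0.0111, edgeR). Ptger4, a prostaglandin E2 receptor with the most counts of the list, was at 87.5 to 109 CPM and at 75.7 to 116 CPM, so its groups overlapped (log2 fold change 0.02, adjusted p = 0.956, edgeR). The leukotriene B4 receptor Ltb4r1 also overlapped between the groups (log2 fold change 0.08, adjusted p = 0.925, edgeR).

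**Figure D5:**
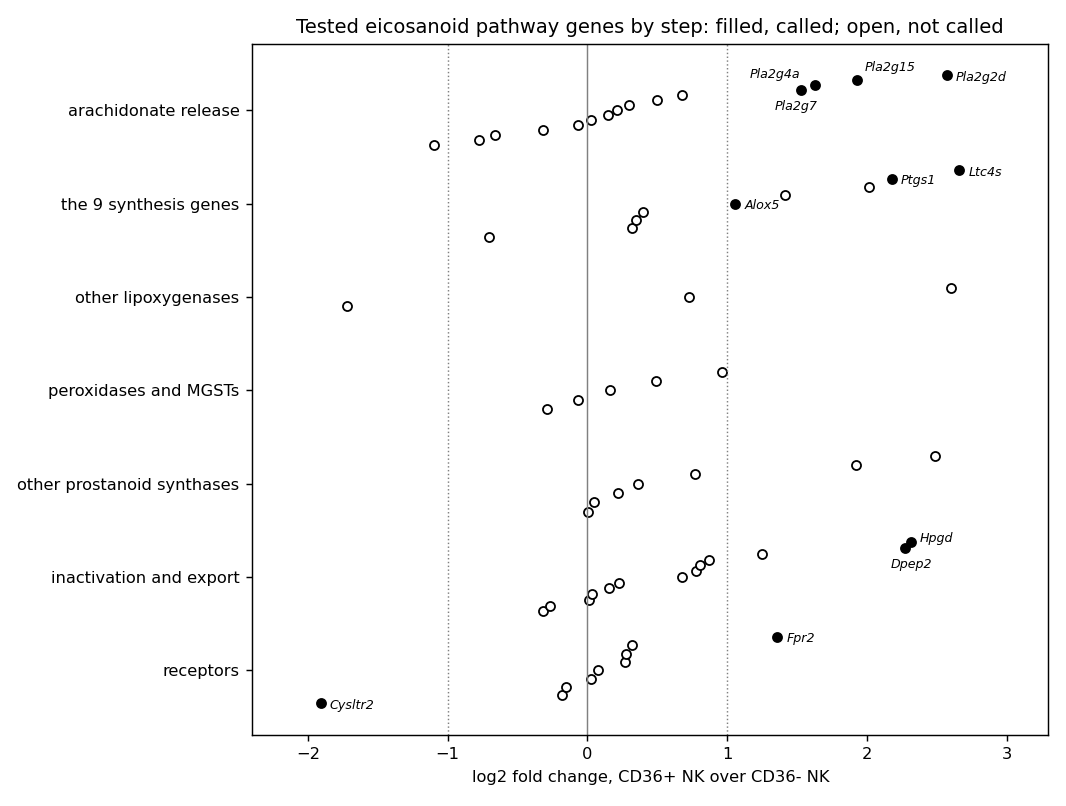
Log2 fold change of CD36+ NK over CD36- NK for every tested gene of the eicosanoid pathway, 1 row a step, with filled, named points for called genes and dotted lines at a fold of 2; height within a row only spreads the points. Called genes lie at release, synthesis, inactivation and the receptors, and Cysltr2 at -1.91 is the only called gene below 0.

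Other cell types that make or take up eicosanoids were followed with fixed marker lists. The 10 neutrophil genes, led by Ngp, S100a9 and Ltf, summed to between 919 and 5474 CPM in CD36+ NK libraries and to between 1926 and 4638 CPM in the others, and none was called by edgeR's quasi-likelihood test, with 1, Csf3r, higher at an unadjusted p below 0.05 and called by DESeq2 and the exact test. CD36+ NK replicate 1, which was highest for Alox5, Alox5ap, Alox15 and Ptgs2, was also the highest for this sum. The 6 monocyte genes summed to 723 to 1139 CPM and 838 to 1361 CPM, with Cd14 and Treml4 called higher and Ccr2 lower by edgeR's quasi-likelihood test, and with 2 higher and 3 lower by DESeq2 and the exact test. The 9 platelet genes were at 16.8 to 31.1 CPM and 18.7 to 20.8 CPM in sum, and 2 of the 5 tested, Pf4 and Ppbp, were called higher at levels of at most 2.06 and 7.57 CPM, of which DESeq2 called Ppbp. The 8 B cell genes summed to 4615 to 5142 CPM and 3035 to 3479 CPM, with Cr2 called higher, although the sort took CD3- NK1.1+ cells. The 8 dendritic cell genes summed to 297 to 359 CPM and 478 to 659 CPM, with Xcr1 and Clec9a called higher and Itgax lower. Itgax alone made up 197 to 255 CPM and 415 to 611 CPM of these sums. The other 7 genes, summed after the values were seen, came to 79.5 to 104 CPM and 47.6 to 84.0 CPM. These ranges overlapped, so the lower sum in CD36+ NK rested on Itgax, and the sums were not tested. No marker gene in any list was at 0 counts in all 6 libraries. The part of these cell types in the levels of the 9 genes was not tested.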

How the data were processed

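RNA-seq of 6 libraries, 3 of CD36+ NK and 3 of CD36- NK cells, was analysed from 1 table. The authors filtered reads with Seqtk, mapped them with HISAT2 2.0.4 and deposited fragment counts per gene made with StringTie. FPKM values deposited beside the counts by the authors were not tested; they divide by the sum of all exon lengths, overlapping exons included, so levels per kilobase used the union of exons in GENCODE M21. The submitters' processing notes name a rat assembly, mRatBN7.2, whereas the table holds mouse Ensembl identifiers, so the table's coordinates are given without a build. Library names carry the opposite sign of CD36 to some titles and, for CD36- NK, other replicate numbers, with titles 1, 2 and 3 named 6, 1 and 2. The titles were followed, so the replicate block rests on title numbers. Replicate 1 of both groups has a library name in lower case, and the block for the form of the library name sets these libraries apart. The lines of 2 genes were broken and were rejoined.

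Counts were tested with edgeR 4.0.16 in R 4.3.3 by the quasi-likelihood test with TMM scaling and filterByExpr at a minimum count of 10, which left 14761 genes. Calls needed an adjusted p (Benjamini-Hochberg, all tested genes) below 0.05 with a fold above 2. The script was checked on simulated counts. Single ratios were tested with an exact permutation test in Python 3.11.15. Replicates differed by more than sampling noise (chi-square per degree of freedom of 15.0 to 29.7). Intervals and the floor of 3 counts cover counting error only. Alternatives were DESeq2 1.42.0, the exact test, other scalings, filters, blocks and fold thresholds, and leaving out each library.

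The 9 genes, the pathway and marker lists and the tests were chosen with earlier results of these data known. Named genes are the 9, pathway genes that were called or, for phospholipases, terminal synthases, inactivating enzymes and receptors, had an adjusted p below 0.05, the 3 most counted genes of each list, and the 3 genes most like each called gene; Epx, Ear1, Ear6, Clec4f and other marker genes, and the promoter letters, were chosen after values were seen.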

Additional observations from a re-analysis of the deposited data

How the results depend on the processing

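The count of 3 called synthesis genes was 5 with DESeq2 and with edgeR's exact test, 1 with no filter on low counts, 0 with replicates 2 and 3 only, and 0 to 4 with 1 library left out. Over all tested genes the calls of higher genes went from 440 to 652 by DESeq2, 723 by the exact test, 358 with no filter and 106 with replicates 2 and 3 only, and to between 94 and 708 with 1 library left out. With the replicate block it was 2, and Ptgs1 lost its call (adjusted p = 0.0792, edgeR); same-numbered libraries had correlated deviations of 0.310, 0.0515 and -0.0837, and the library names number CD36- NK otherwise, so the title numbers were not taken as a pairing. The count of 8 other pathway genes was 4 with no filter, 3 with the replicate block, 5 with a block for the form of the library name, 5 with replicates 2 and 3 only, 13 with no fold threshold, 3 above a fold of 4, and 2 to 12 with 1 library left out. The log2 fold change of Alox15 ran from -0.76, without CD36+ NK replicate 1, to 0.70 with 1 library left out and turned to -0.71 with replicates 2 and 3 only, and no other of the 9 changed direction. Relative to the macrophage genes, leaving out Lyz2 turned the values to -0.18 for Ptgs1, -0.30 for Hpgds, -0.91 for Tbxas1 and -1.26 for Alox5. With 3 libraries a group the calls of Alox5, Ltc4s and Ptgs1 lie near the threshold, and Ltc4s rests on 88 counts. For the shifts with the test and the filter the cause was not tested.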
